A study of Capra hircus with 4 samples.

Results

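Nuclei carrying the transcripts of motile cilia were examined in single-nucleus RNA sequencing of the goat ovary. A nucleus was taken as a member if it had 800 or more UMIs (unique molecular identifiers, each standing for 1 captured transcript) and at least 1 UMI of 4 or more of 8 gate genes, DNAH5, DNAH9, DNAH11, DNAH12, SPAG17, HYDIN, NEK10 and NEK5. The gate took 204 of the 41606 nuclei with that depth, out of 48332 nuclei in all. The members were chosen by the measured UMIs of these 8 genes, so the genes' levels are given as a description and were not tested.

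The study compared ovaries of Du'an goats, labelled monotocous with a litter size of 1, with those of Nubian goats, labelled polytocous with a litter size of 3. There were 2 goats per breed and 1 library per goat, taken from the left ovary. All 4 goats were about 3 years old and had received a progesterone-releasing vaginal insert of 300 mg for 17 days, so no group without the hormone was available. The Du'an libraries held 40573246 and 60566681 UMIs, and the Nubian libraries 71613892 and 52783453.

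Multiciliated cells are epithelial cells that carry many beating cilia on the surface facing a lumen. The core of such a cilium, the axoneme, is a ring of microtubule doublets around a central pair. Outer and inner dynein arms slide the doublets, radial spokes and the central pair regulate the arms, and intraflagellar transport builds the structure. The transcription factor FOXJ1, together with the RFX factors, switches on most genes of the axoneme. In the female tract such cells are best known from the oviduct, where their beat moves the oocyte.

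The members were spread unevenly over the libraries. Du'an replicate 1 held 4, Du'an replicate 2 held 79, Nubian replicate 1 held 16 and Nubian replicate 2 held 105. The members carried a median of 7820.5 UMIs, from 877 to 102299, against 3104 in the nuclei outside the gate. Barcodes were shared by 54 to 131 nuclei in each pair of libraries. Of the members, 3 had a barcode that also occurred in another library, and no barcode was a member in both.

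The number of gate genes per nucleus fell into separate groups. Nuclei with 3 gate genes, just outside the gate, numbered 259. Just inside it, 31 nuclei had exactly 4 gate genes, 8 had 5 and 3 had 6. The count then rose again, to 38 nuclei with 7 and 124 with all 8. The plot of gate genes per nucleus shows this dip in the libraries with many members.

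**Figure D1:**
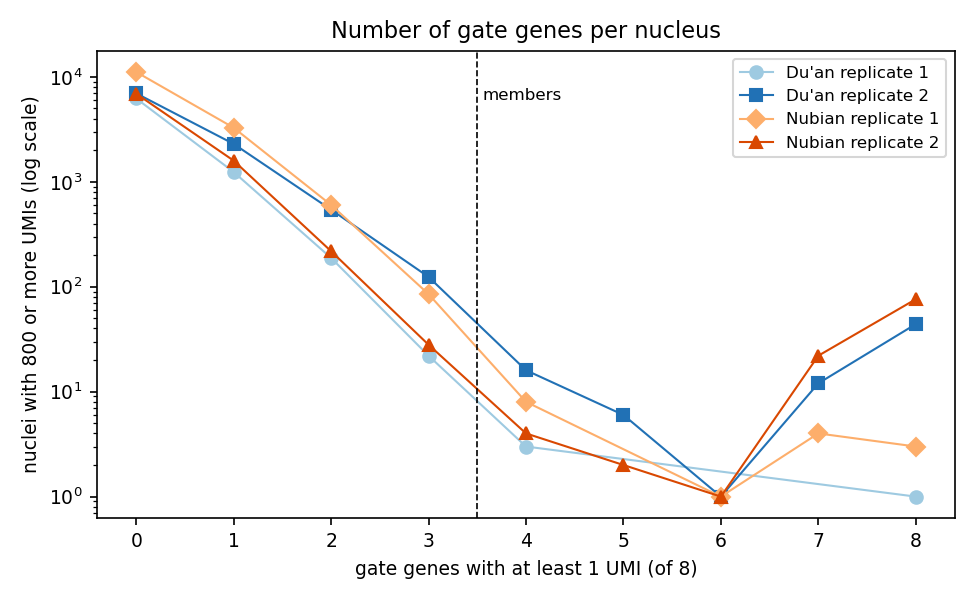
Number of nuclei (log scale) by how many of the 8 gate genes had at least 1 UMI, for each library. Points are counts of nuclei with 800 or more UMIs, counts of 0 are not drawn, and the dashed line marks the gate; the counts fall to 1 nucleus with 6 gate genes and rise again to 44 and 76 nuclei with 8 in Du'an replicate 2 and Nubian replicate 2.

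The low end of the gate went against the label multiciliated. In the 31 nuclei with exactly 4 gate genes, 111 axoneme genes that the gate did not use summed to 1877 CPM (counts per 1000000 UMIs). The nuclei outside the gate had 1682 CPM and the 162 nuclei with 7 or 8 gate genes had 34988 CPM. The 10 granulosa markers (among them FSHR, the receptor of follicle-stimulating hormone, and CYP19A1, the aromatase) went the other way, at 6464 CPM with 4 gate genes against 729 CPM with 7 or 8. FOXJ1 had 0 UMIs in the 4-gene nuclei, and the epithelial adhesion gene EPCAM had 5.5 CPM against 485 CPM. The 259 nuclei with 3 gate genes had 1761 CPM of the axoneme genes and 6316 CPM of the granulosa markers. The axoneme level of the 4-gene nuclei was thus near that of the nuclei just outside the gate, and they were deep, with a median of 20954 UMIs.

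Nucleus by nucleus the same split was seen. The axoneme genes ranged from 629 to 23055 CPM in the 4-gene nuclei, with a median of 1864. They ranged from 5338 to 73446 CPM in nuclei with 7 or 8 gate genes, with a median of 42639. The ranges overlapped, but the medians lay far apart. The 11 nuclei with 5 or 6 gate genes spanned 1216 to 40605 CPM. The 4-gene nuclei held 429620 of the 1207897 UMIs of the members in Du'an replicate 2 and 45542 of 968318 in Nubian replicate 2. Results below are for all members unless 7 or 8 gate genes are named, the stricter gate, chosen after this pattern was seen.

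**Figure D2:**
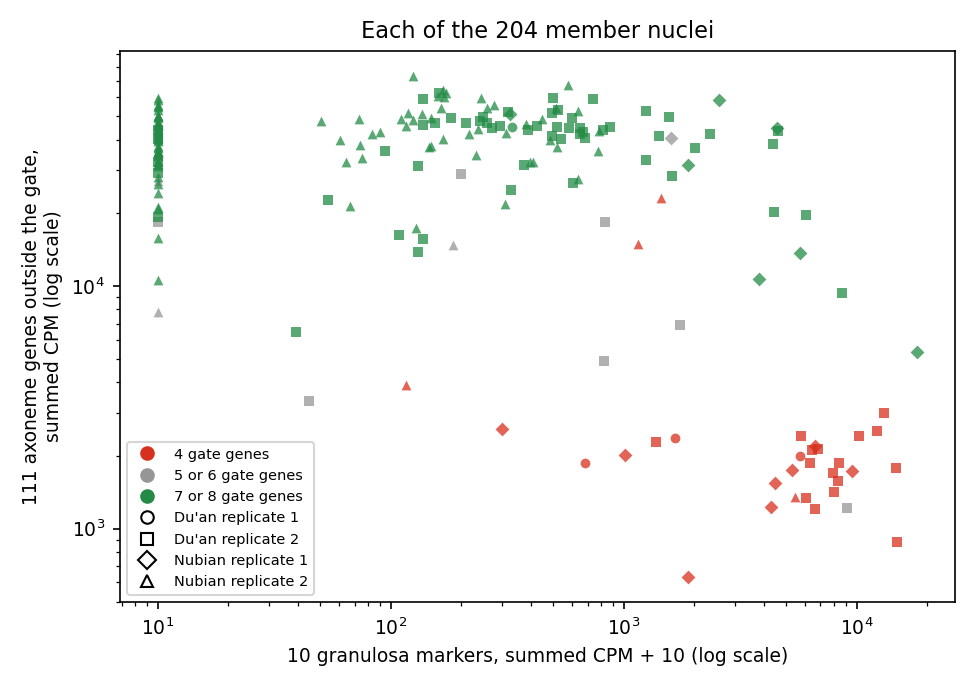
Each member nucleus, by the summed CPM of 10 granulosa markers (plus 10) and of 111 axoneme genes outside the gate, both on log scales. Colour gives the number of gate genes and shape the library; the 31 nuclei with 4 gate genes lie at a median of 1864 CPM of axoneme genes and the 162 with 7 or 8 at a median of 42639 CPM.

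Markers of other cell types were also present in some members with many gate genes. Of all members, 78 passed a gate of 4 epithelial markers, 46 passed the granulosa gate, and 58 passed the gate of any class other than epithelial. In Nubian replicate 1, 13 of the 16 members passed the granulosa gate. Its 7 nuclei with 7 or 8 gate genes had 8148 CPM of granulosa markers, against 1059 CPM in Du'an replicate 2 and 70.2 CPM in Nubian replicate 2. These are levels of summed UMIs, in which the deepest nuclei weigh most. The share of mitochondrial transcripts exceeded 20% in 10 members, 9 of them in Nubian replicate 2. Its median was 4.03% in the members of Nubian replicate 2 and 1.07% in that library's other nuclei, against 1.29% in both the members and the other nuclei of Du'an replicate 2. The share counts ATP6, COX2 and ATP8, at 1.46, 1.94 and 0 CPM outside the gate in Du'an replicate 2 against 3638, 1946 and 11.8 CPM in Nubian replicate 2. It is thus not on a like scale between these libraries. How far nuclei captured together or free RNA entered these values was not tested.

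The share of nuclei inside the gate was compared between the breeds. It was 0.0521% (exact binomial 95% interval 0.0142 to 0.133) and 0.790% (0.626 to 0.984) in the Du'an libraries. The Nubian libraries had 0.106% (0.0606 to 0.172) and 1.19% (0.972 to 1.44). Each breed thus had a library with few members and a library with many, and the breeds overlapped. The mean was 0.225 percentage points higher in the Nubian goats, which did not pass an exact two-sided permutation test over the libraries (p = 0.667, n = 2 per breed). The smallest p this design allows is 0.3333. The direction turned with 3 gate genes (-0.0982 points), without Du'an replicate 1 (-0.144) and without Nubian replicate 2 (-0.315). With 7 or 8 gate genes the shares were 0.0130% and 0.560% in Du'an and 0.0464% and 1.11% in Nubian libraries, again with p = 0.667 in the exact test.

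The gate genes themselves were measured in every library. DNAH5, the heavy chain of the outer dynein arm, had 442 and 899.9 CPM in the members of the Du'an libraries, in order of replicate, and 256 and 2431 CPM in those of the Nubian libraries. The nuclei outside the gate had 4.24 CPM in Du'an replicate 2 and 1.98 CPM in Nubian replicate 2. HYDIN, a projection of the central pair, had 184, 755, 187 and 1501 CPM in the same order, and 24.2 and 16.3 CPM outside the gate in the 2 libraries with most members. NEK5, a NIMA-related kinase, had 73.6, 113, 34.4 and 264 CPM against 0.27 and 0.32 CPM outside. Nubian replicate 2 was highest, and Du'an replicate 1 and Nubian replicate 1, with few members, were lowest for all 3 genes. These genes are long, with a median span of 272 kb in the RefSeq annotation (ARS1.2), against 22.4 kb for all genes with a UMI in the members.

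The genes the gate did not use were tested. UMIs were summed per library and cell class, classes being nuclei that passed 4 markers of a single cell type, and sums of at least 20 nuclei were kept. Only Du'an replicate 2 and Nubian replicate 2 had that many members. The edgeR quasi-likelihood test then compared the members with the mean of 9 other classes, with the library as a block, over 13349 genes. Of these, 2104 genes (15.8%) were higher and 762 genes (5.71%) were lower at a Benjamini-Hochberg adjusted p under 0.05. Against the epithelial class alone, 1153 genes (8.64%) were higher and 692 (5.18%) lower. Genes that defined any of the classes were left out of these counts. Nubian replicate 2 carried much of this, since without it 1247 genes were higher and 76 lower than the mean of the classes, and 233 higher and 20 lower than the epithelial class. With a gate of 5, which drops only the nuclei with exactly 4 gate genes, 2544 genes were higher and 1322 lower than the mean of the classes. With 7 or 8 gate genes 2623 of 13193 genes (19.9%) were higher and 1419 (10.8%) lower. The filter on low counts could be met by the member sums alone. A gene near 0 in the other classes could then be called higher but not lower. Shares of lists called higher are therefore descriptions. Since many ciliary genes had 0 UMIs in whole classes, their fitted fold changes have no firm size. Levels are therefore given first, as CPM in the members and in the nuclei outside the gate of the same library, with their ratio, for which a level under 3 UMIs was set to 3 UMIs.

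Genes of the axoneme were higher nearly throughout. Of 98 tested axoneme genes outside the gate, 92 (93.9%) were higher than in the other classes, against 15.8% of all genes, and none was lower. The rest of the 111 such genes were too low to test. Some of the 98 were near 0 elsewhere and could hardly be called lower, such as KIF19, at 0 in 7 other classes. The ratio of levels had a median of 31.7 over the 98 genes and 0.920 over all genes tested. Against the epithelial class 83 of the 98 were higher, against 8.64% of all genes. With 7 or 8 gate genes, 95 of the 98 were higher, against 19.9% of all genes.

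The dynein heavy chains are the motors of the cilium. Of the inner arm chains outside the gate, 6 of 7 were higher, against 15.8% of all genes. DNAH3 had 421 CPM in the members of Du'an replicate 2 and 916 CPM in those of Nubian replicate 2, against 1.85 and 1.89 CPM outside the gate. DNAH6 had 672 and 1406 CPM against 6.004 and 3.57 CPM. DNAH7 had 618 and 1638 CPM against 14.5 and 26.5 CPM. DNAH10, DNAH1 and DNAH2 were likewise higher, at 204 and 384 CPM, 22.4 and 65.1 CPM, and 60.4 and 131 CPM. In all 6 genes the members of both libraries lay above every other class mean. DNAH3, DNAH7 and DNAH10 were higher with edgeR adjusted p of 6.35e-21, 9.83e-19 and 3.77e-17, while DNAH2, at 0 in 3 classes, did not pass in DESeq2 (adjusted p = 0.0877).

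The other heavy chains were mixed. DNAH14 had 3.31 and 3.10 CPM in the members, below the 13.8 CPM of the stromal class, and did not pass (edgeR adjusted p = 0.718). The outer arm has 3 heavy chains in the gate and 2 paralogs best known from the sperm flagellum, DNAH8 and DNAH17. DNAH8 was higher, at 44.7 and 107 CPM against 2.19 and 4.25 CPM outside the gate (log2 fold change 5.08 ± 0.45 SE, edgeR adjusted p = 6.36e-11). DNAH17 had 1.66 and 0 CPM and was too low to test. Of these 2 paralogs the members thus carried DNAH8 and hardly any DNAH17. DNAH5, DNAH9 and DNAH11 had served to choose the members, so their presence is not a result.

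The parts that hold and assemble the dynein arms were higher as well. Of 12 tested intermediate and light chains and docking proteins, 11 were higher, against 15.8% of all genes. Among the 11 were DNAI2, WDR63 and WDR78 (intermediate chains) and EFCAB1. DNAI2 had 58.8 and 159 CPM against 1.09 and 2.28 CPM outside the gate. The exception was NME8, with 0 UMIs in both libraries' members and 60.5 CPM in the T or NK class. Of 12 tested assembly factors, which fold and load dynein in the cytoplasm, 11 were higher, against the same 15.8%. DNAAF3 had 67.1 and 162 CPM, and SPAG1 had 346 and 783 CPM against 91.1 ± 66.9 CPM (SD, n = 2 libraries) in the epithelial class. C13H20orf194 (269.9 and 333 CPM) did not pass over all members and was higher with 7 or 8 gate genes.

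All 18 tested genes of the radial spokes and central pair were higher, against 15.8% of all genes, with a median ratio of levels of 46.2. CFAP54, a central pair protein, had 1906 and 3739 CPM against 73.7 and 72.8 CPM (log2 fold change 5.02 ± 0.20 SE, edgeR adjusted p = 5.05e-19). SPAG6, another central pair protein, had 327 and 833 CPM against 0.60 and 1.65 CPM. RSPH4A, a spoke head protein, had 39.7 and 146 CPM against 0.14 and 0.08 CPM. Of the nexin link and ruler genes, 13 of 14 were higher, against the same 15.8%. Among them was CCDC39, which sets the spacing along the doublet, at 228 and 563 CPM. WDR66 did not pass over all members (275 and 542 CPM, with 563 CPM in macrophages) and was higher with 7 or 8 gate genes.

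The proteins inside the doublet microtubules were higher in 18 of 18 tested genes, against 15.8% of all genes, with a median ratio of levels of 79.6. ENKUR had 71.2 and 192 CPM against 0.85 and 1.11 CPM outside the gate, and CFAP45 had 89.4 and 222 CPM against 1.33 and 1.35 CPM. Of the kinases, kinesins and tubulin modifiers of cilia, 14 of 16 were higher, against the same 15.8%. Among the 14 were LRRIQ1, NEK11, STK33 and KIF27. NEK11 had 548 and 1218 CPM, against a highest class mean of 128 CPM in lymphatic endothelium. ICK (27.3 and 14.5 CPM) and STK36 (9.11 and 15.5 CPM) did not pass, and STK36 was higher under the stricter gate.

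**Figure D3:**
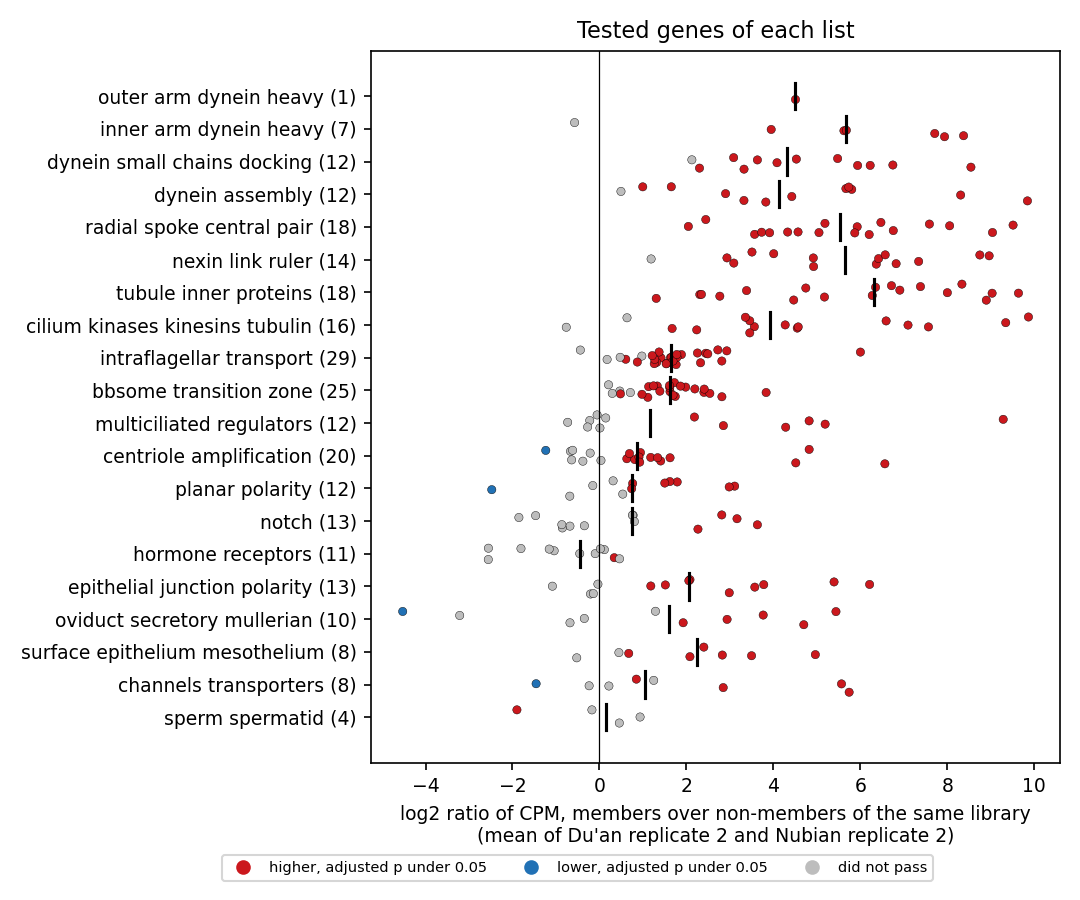
Tested genes of each list, by the log2 ratio of CPM in the members over CPM in the nuclei outside the gate, averaged over Du'an replicate 2 and Nubian replicate 2, with levels under 3 UMIs set to 3 UMIs. Red points were higher and blue points lower in the edgeR test against the mean of the other classes, black bars are medians, and the number of genes is in parentheses; 92 of 98 axoneme genes are red, while 10 of 11 hormone receptors did not pass.

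Genes shared with the immotile cilium of most cells were also mostly higher, with smaller ratios. Intraflagellar transport, which carries material along the cilium, had 25 of 29 tested genes higher, against 15.8% of all genes, with a median ratio of 3.11. Of the 29, 18 were higher than in the epithelial class, against 8.64%. IFT88 had 191 and 387 CPM, against 58.3 ± 11.6 CPM (SD, n = 2) in the epithelial class (log2 fold change 3.04 ± 0.22 SE against the mean of the classes, edgeR adjusted p = 6.21e-13). KIFAP3 (164 and 165 CPM) and TTC21B (147 and 68.2 CPM) did not pass. With 7 or 8 gate genes 26 of 29 were higher and 1, TTC21B, was lower, against 19.9% and 10.8% of all genes. The BBSome and transition zone, the gate at the base of the cilium, had 21 of 25 higher, with a median ratio of 3.07, and 10 of the 25 were higher than in the epithelial class. BBS9 had 584 and 1222 CPM, and TMEM231 had 77.8 and 119.8 CPM. AHI1 did not pass, at 231 and 219 CPM. Under the stricter gate 23 of 26 genes of that list were higher, against 19.9% of all genes.

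Regulators of multiciliated cells were mixed. Of 12 tested, 6 were higher, against 15.8% of all genes. It was also 6 of 12 under the stricter gate, against 19.9%, with TP73 called and CDC20B too low to test, and TRPC4AP was lower. FOXJ1 had 48.8 CPM (exact Poisson 95% interval 37.2 to 63.0) in the members of Du'an replicate 2 and 227 CPM (198 to 259) in those of Nubian replicate 2. It was at 0.12 and 0.24 CPM outside the gate and at 0 UMIs in the members of Du'an replicate 1 and Nubian replicate 1 (edgeR adjusted p = 3.26e-09 over the former 2 libraries). FOXJ1 was at 0 in 4 of the other classes, and DESeq2 gave it a log2 fold change of 8.47 ± 6.47 SE that did not pass (adjusted p = 0.396). RFX2 had 244 and 612 CPM against 11.3 and 9.90 CPM (log2 fold change 4.99 ± 0.31 SE, edgeR adjusted p = 1.22e-14). RFX3, which most classes carried at some level, had 1293 and 2187 CPM against 409 and 334 CPM (2.46 ± 0.19 SE, edgeR adjusted p = 2.85e-12). MYB, a factor of early multiciliated differentiation, had 65.4 and 107 CPM against 4.46 and 1.96 CPM, and ANKRD66 was higher too, at 20.7 and 86.7 CPM. RFX1, GMNN, E2F4, E2F5, TFDP1 and TRPC4AP did not pass.

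Not every nucleus showed a FOXJ1 UMI. It was seen in 23 of 79 members of Du'an replicate 2 (29.1%, exact binomial 95% interval 19.4 to 40.4) and in 40 of 105 of Nubian replicate 2 (38.1%, 28.8 to 48.1). In the granulosa class, 4 of 13372 nuclei had one (0.0299%), at a median of 4876.5 UMIs against 7820.5 in the members. In the epithelial class, 4 of 274 had one (1.46%), at a median of 7174 UMIs. After thinning each nucleus to 800 UMIs the shares were 2.53% (2 of 79) and 7.62% (8 of 105) in the members of Du'an replicate 2 and Nubian replicate 2. In the epithelial class of the same libraries they were 1.85% (1 of 54) and 0 of 207, which allows a share of up to 1.45%. In Du'an replicate 2 the thinned shares of the members and the epithelial class were thus close. The long gene CFAP54 was seen in 88.6% and 98.1% of the members, in 68.5% and 57.0% of the epithelial class of the same libraries, and in 24.6% of granulosa nuclei.

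The switches at the start of the programme had few UMIs. MCIDAS, GMNC and CCNO, which start the programme and centriole multiplication, had 4 and 2, 2 and 4, and 4 and 4 UMIs in the members of Du'an replicate 2 and Nubian replicate 2, too few to test. As levels these were 3.31 and 2.07, 1.66 and 4.13, and 3.31 and 4.13 CPM, against 0.0510 and 0.0794, 0.0510 and 0.238, and 0.170 and 0.397 CPM outside the gate. TP73 had 12 and 44 UMIs and was too low for the test over all members. It was called higher by edgeR with 7 or 8 gate genes, where it had 12 and 41 UMIs and first passed the count filter. Outside the gate its level was 1.56 and 0.81 CPM, a unit unlike those UMI counts. RFX4 and FOXN4 had 0 and 1 UMI each. CDC20B, which marks cells that are multiplying their centrioles, was the sixth regulator called higher (edgeR adjusted p = 0.000439). It had 35 UMIs (29.0 CPM, 20.2 to 40.3) in the members of Du'an replicate 2 and 1 UMI (1.03 CPM, 0.0261 to 5.75) in those of Nubian replicate 2, and 61.2 and 4.74 CPM in the epithelial class of the same libraries. Both classes thus had more of it in Du'an replicate 2. Of the 35 UMIs, 33 came from 2 of the 7 nuclei with 5 or 6 gate genes, and 1 came from the nuclei with 7 or 8, where the gene was too low to test. Its call for all members therefore rests largely on 2 nuclei.

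Of the genes of centriole multiplication and basal bodies, 13 of 20 were higher, with a median ratio of 1.82, and 1 was lower, against 15.8% and 5.71% of all genes. Under the stricter gate 13 were higher and 2, CENPJ and CEP63, were lower, against 19.9% and 10.8%. Of the 20, 10 were higher than in the epithelial class and none was lower, against 8.64% and 5.18%. DEUP1, the scaffold of the deuterosome on which new centrioles form, had 252 and 316 CPM against 10.5 and 9.47 CPM (log2 fold change 5.07 ± 0.28 SE, edgeR adjusted p = 1.39e-15). It was also higher than in the epithelial class (76.3 ± 19.97 CPM, SD, n = 2, edgeR adjusted p = 0.0036). CCDC78 and CROCC2, a relative of the rootlet protein rootletin, were higher, and CCP110, a cap of the centriole, rose by 1.69 ± 0.20 on the log2 scale. CEP192, CEP63, CEP152, PLK4, STIL and SASS6, of the general centriole cycle, did not pass. CENPJ was the single gene called lower, at 28.1 and 9.29 CPM against 39.5 and 36.7 CPM outside the gate (edgeR adjusted p = 0.0158).

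The members carried epithelial transcripts. EPCAM had 55.2, 218, 34.4 and 555 CPM in the members of the 4 libraries in order, against 268 ± 76.7 CPM (SD, n = 2) in the epithelial class, which it helped define. The keratins KRT7, KRT8 and KRT19 had 77.0 and 98.1, 151 and 152, and 175 and 153 CPM in Du'an replicate 2 and Nubian replicate 2. Among tight junction and polarity genes not used by any gate, CLDN3 had 55.5 and 83.7 CPM and CLDN7 had 39.7 and 63.0 CPM. Both were higher than in the mean of the classes by edgeR, and CLDN7 did not pass in DESeq2 (adjusted p = 0.165). In that list 9 of 13 tested genes were higher, against 15.8% of all genes, with a median ratio of 4.16. The stricter gate gave 10 of 13, against 19.9% of all genes. Against the epithelial class none of the 13 was higher, against 8.64% of all genes, and PATJ and TJP1 were lower. TJP1, PARD3 and PATJ, which many cell types use, did not pass against the mean of the classes.

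Genes of Müllerian (oviduct) and surface epithelium were present side by side. Of the Müllerian list 5 of 10 tested genes were higher and 1 lower, and of the surface list 6 of 8 were higher, against 15.8% (higher) and 5.71% (lower) of all genes. The stricter gate had 5 of 9 and 5 of 8 higher and none lower, against 19.9% and 10.8%. Against the epithelial class none of the Müllerian genes was called, and 1 surface gene was higher and 1 lower, against 8.64% and 5.18%. PAX2, a factor of the Müllerian duct, had 62.9 and 126 CPM against 2.94 and 14.5 CPM outside the gate. MUC1, a mucin of the epithelial surface, had 52.2 and 76.4 CPM, and WFDC2 had 48.8 and 73.3 CPM. WT1, known from the ovarian surface, had 446 and 769 CPM against 81.2 and 83.9 CPM (log2 fold change 3.09 ± 0.30 SE, edgeR adjusted p = 4.97e-10). MSLN, the mesothelial antigen mesothelin, had 31.5 and 63.0 CPM and ALDH1A2 had 233 and 287 CPM. UPK1B, a uroplakin, was at 82.8 CPM in Du'an replicate 2 and 10.3 CPM in Nubian replicate 2, and its log2 fold change went from 4.24 to -5.58 without the members that also passed another gate. PLAC8 was the single gene of these lists called lower, at 4.97 and 1.03 CPM against 67.0 and 122 CPM.

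Most of these genes did not pass against the epithelial class, which does not show that their levels were alike. PAX2 differed from it by -1.11 ± 0.45 (log2, SE, edgeR adjusted p = 0.116). MUC1 differed by 0.55 ± 0.62 (edgeR adjusted p = 0.606) and WT1 by -0.31 ± 0.48 (edgeR adjusted p = 0.728). MSLN was the single gene of the 2 lists called higher than in the epithelial class, by 2.76 ± 0.74 (edgeR adjusted p = 0.0115). PKHD1L1 was the single gene called lower, at 134 and 87.8 CPM against 605 CPM. As a description across 28936 genes outside the gate, with all classes sharing their library, the members' log2 levels in Nubian replicate 2 had the highest Pearson correlation with the epithelial class (0.893), followed by granulosa (0.859). In Du'an replicate 2 granulosa (0.925) and epithelial (0.921) were close together. The member sum there includes the nuclei at the low end of the gate, which carried granulosa markers. The compared sums also differed in depth, with 27638504 UMIs in granulosa and 375869 UMIs in the epithelial class of Du'an replicate 2. The correlation was made for all members only, not under the stricter gate. No likeness of multiciliated nuclei to granulosa cells is therefore read from it. The plot of levels by class shows the ciliary, epithelial and granulosa genes side by side.

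**Figure D4:**
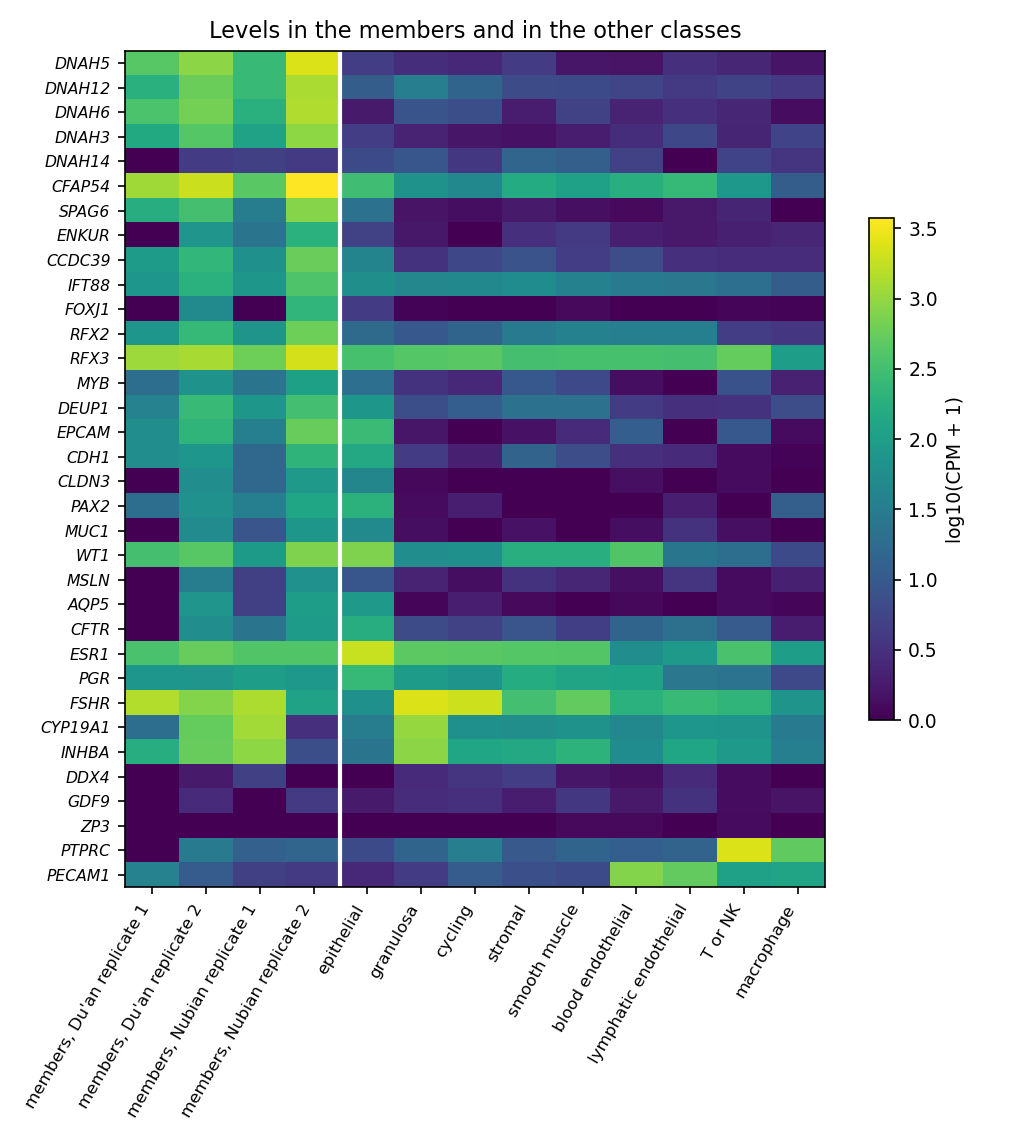
Levels, as log10(CPM + 1), of chosen genes (rows) in the members of each library (first 4 columns) and as the mean over libraries of each other class. Ciliary genes are bright in the member columns, EPCAM and PAX2 in the member and epithelial columns, and the granulosa genes FSHR and CYP19A1 in the granulosa column and, less so in Nubian replicate 2, in the members.

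Of the ion channels and transporters of epithelia, 4 of 8 tested were higher and 1 was lower, against 15.8% and 5.71% of all genes. Under the stricter gate 5 of 9 were higher and 1 lower, against 19.9% and 10.8%. Of the 8, 2 were higher and none lower than in the epithelial class, against 8.64% and 5.18%. AQP5, a water channel, had 71.2 and 95.0 CPM and CFTR, a chloride channel, had 55.5 and 92.9 CPM, against 83.9 ± 62.0 and 165 ± 22.5 CPM (SD, n = 2) in the epithelial class. PKD2, the ciliary cation channel polycystin-2, had 207 and 267 CPM (log2 fold change 1.41 ± 0.19 SE, edgeR adjusted p = 5.44e-07). Its partner PKD1 did not pass (13.2 and 23.8 CPM). KCNRG, a potassium channel regulator, was higher at 67.9 and 105 CPM, and KCNRG and PKD2 were also higher than in the epithelial class. SLC4A4, a bicarbonate transporter, was lower, at 27.3 and 19.6 CPM against 56.1 and 72.0 CPM outside the gate.

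Planar polarity genes, which align the beat of neighbouring cells, were higher in 7 of 12 tested and lower in 1, against 15.8% and 5.71% of all genes. Under the stricter gate 7 of 11 were higher and 1 lower, against 19.9% and 10.8%. Of the 12, 1 was higher and 1, VANGL1, lower than in the epithelial class, against 8.64% and 5.18%, and the median log2 difference was -0.04. CELSR1 had 162 and 228 CPM (log2 fold change 3.71 ± 0.25 SE), although the epithelial class had 344 ± 40.1 CPM (SD, n = 2). PRICKLE2 had 77.8 and 207 CPM and was higher than in the epithelial class too (edgeR adjusted p = 0.00107). Its paralog PRICKLE1 was lower, at 44.7 and 23.8 CPM against 153 and 215 CPM outside the gate. VANGL1 and DVL3 did not pass against the mean of the classes.

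Notch signalling decides between ciliated and secretory fates in other epithelia. Of 13 tested genes of the pathway 4 were higher, the ligands JAG2 and DLL4 and the targets HES1 and HEY1, against 15.8% of all genes. The stricter gate had 4 higher, and NOTCH2 was lower, against 19.9% and 10.8%. Of the 13, 4 were higher and 2, NOTCH2 and NOTCH3, lower than in the epithelial class, against 8.64% and 5.18%. JAG2 had 13.2 and 35.1 CPM and DLL4 had 8.28 and 34.1 CPM, both below their means in blood endothelium (96.1 and 49.4 CPM). HEY1 had 3.31 and 31.0 CPM, and neither HEY1 nor HES1 passed without Nubian replicate 2. Among the receptors, NOTCH2 (316 and 199 CPM) did not pass against the mean of the classes and was lower than in the epithelial class (642 ± 61.7 CPM, SD, n = 2, edgeR adjusted p = 0.00257).

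The receptors ESR1 and PGR were lower than in the epithelial class. ESR1, the oestrogen receptor, had 546 and 394 CPM in the members and 1881 ± 117 CPM (SD, n = 2) in the epithelial class, a difference of -2.06 ± 0.35 (log2, SE, edgeR adjusted p = 0.000124). PGR, the progesterone receptor, had 72.9 and 80.6 CPM against 246 ± 76.7 CPM (-1.77 ± 0.49, edgeR adjusted p = 0.0137). The members of both libraries lay below both epithelial sums for both genes. Against the mean of all classes, ESR1 was higher by 0.83 ± 0.24 (edgeR adjusted p = 0.0104), a call lost without Nubian replicate 2 or without the library block. PGR did not pass there (edgeR adjusted p = 0.718).

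Hormone receptors as a list gave few calls against the mean of the classes. There 1 of 11 tested receptors, ESR1, was higher and none was lower, against 15.8% and 5.71% of all genes. Of the 11, 1 was higher and 3 were lower than in the epithelial class, against 8.64% and 5.18%. ESR2, NR3C1, PRLR, GHR, IGF1R, PGRMC1 and PGRMC2 did not pass against the mean of the classes. INSR, the insulin receptor, had 612 and 204 CPM against 115.9 ± 35.9 CPM (SD, n = 2) in the epithelial class (edgeR adjusted p = 0.00258), and 301 and 183 CPM with 7 or 8 gate genes. FSHR and LHCGR, which helped define other classes, were at 817 and 114 CPM and at 604 and 3.10 CPM. Under the stricter gate they were at 178 and 31.8 CPM and at 231 and 3.29 CPM. GPER1 had 0 UMIs, and AMHR2 had 1.66 and 0 CPM. With 7 or 8 gate genes ESR1 and PGRMC1 were higher and ESR2, GHR, IGF1R and PRLR lower than in the mean of the classes, against 19.9% and 10.8% of all genes.

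Oocyte genes were at or near 0. Of 16 measured genes of the oocyte list, 12 had 0 UMIs among the 2492460 UMIs of the members, which allows a level of up to 1.20 CPM. They included DAZL, BMP15, FIGLA, NOBOX, LHX8, NLRP5 and the zona pellucida genes ZP2, ZP3 and ZP4, with SOHLH1, OOSP2 and KHDC3L. The other 4 were ZAR1 with 18 UMIs, PADI6 with 8, GDF9 with 5 and DDX4 with 2. The whole list came to 9.11 and 14.5 CPM in the members of Du'an replicate 2 and Nubian replicate 2, against 7.02 and 5.91 CPM outside the gate. No gene of it was abundant enough for the test.

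Of 20 measured genes of sperm and spermatids, 10 had 0 UMIs in the members. The list is of interest because the axoneme of the sperm tail shares many parts with cilia. SPACA3, a sperm acrosome gene, had 35 UMIs, at 9.11 and 23.8 CPM against 0.02 and 0.04 CPM outside the gate, too few for the test over all members, and was called higher by edgeR with 7 or 8 gate genes. Near 0 outside the gate, SPACA3 could enter that test through the members alone and could then not be called lower. Of the list 1 of 4 tested genes was higher, against 15.8% of all genes, and 1 of 5 under the stricter gate, against 19.9%. SYCP1, a meiosis gene, was called higher (edgeR adjusted p = 0.021), but it had 392 CPM in the members of Du'an replicate 2 and 3.10 CPM in those of Nubian replicate 2. The granulosa class had 399.5 CPM of SYCP1. Its call was lost in DESeq2 (adjusted p = 0.0952), and its log2 fold change turned to -2.15 without Du'an replicate 2 and to -0.96 with 7 or 8 gate genes. TEX14 (325 and 250 CPM) did not pass.

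Outside all lists, 15 genes were named for the largest fitted increases. By level, DTHD1 had 541 and 1036 CPM against 0.61 and 0.87 CPM outside the gate. ADGB, androglobin, had 319 and 834 CPM, and ROPN1, a protein of the fibrous sheath, had 142 and 537 CPM against 0.37 and 0.87 CPM. CDHR3, a cadherin known from ciliated airway cells, had 158 and 447 CPM. AQP4, a water channel, had 37.3 and 139 CPM against 0.10 and 0.16 CPM, while AQP5 was shared with the epithelial class. C15H11orf88, C3H1orf87, CCDC60, CCDC113, CCDC180, C9H6orf118, KIAA2012, LRRC56, TMEM212 and MYL10 were also among these 15 genes, of which 9 did not pass in DESeq2.

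The 10 genes outside the lists with the largest fitted decreases had 0 UMIs in the members of both libraries, where 3 UMIs correspond to 2.48 and 3.10 CPM. They were AXL, CXCL12, CD274, C1QTNF6, LRRN1, SLC18A2, SLC16A9, TFPI, CACNB4 and LYSMD2. The chemokine CXCL12 had 108 CPM in blood endothelium, the receptor kinase AXL had 85.1 CPM in macrophages, and TFPI, an inhibitor of coagulation, had 134 CPM in lymphatic endothelium. The epithelial class had 0.79, 1.32 and 2.38 CPM of the same 3 genes, at or under what 3 UMIs allow in the members. CACNB4 was the single gene of the 10 also called lower than in the epithelial class. Each of these 10 calls against the mean of the classes was lost under at least 4 of the alternatives.

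Expression in the members could be set side by side between the breeds in 1 library each, so no test was made. Du'an replicate 2 and Nubian replicate 2 were compared in 10029 genes with 20 or more UMIs over both. Past 4-fold, 527 genes (5.25%) were higher in Du'an replicate 2 and 303 (3.02%) in Nubian replicate 2. With 7 or 8 gate genes these were 246 (2.77%) and 128 (1.44%) of 8873 genes. Across genes, which are not independent replicates, Pearson's r of log2(CPM + 1) was 0.7665 over all members and 0.8309 with 7 or 8 gate genes.

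Granulosa genes were prominent in the difference. CYP19A1 had 536 CPM in the members of Du'an replicate 2 and 2.07 CPM in those of Nubian replicate 2. LHCGR had 604 and 3.10 CPM and SERPINE2, a protease inhibitor of granulosa cells, had 1307 and 13.4 CPM. With 7 or 8 gate genes the same 3 genes had 162 and 2.20, 231 and 3.29, and 447 and 13.2 CPM. These are levels of summed UMIs, not of a typical nucleus. Under that gate in Du'an replicate 2, the summed granulosa markers reached 8617 CPM in a nucleus of 35165 UMIs and 6032 CPM in a nucleus of 13760 UMIs. The median over the 162 nuclei of both breeds was 128 CPM. The nuclei outside the gate in Du'an replicate 2 and Nubian replicate 2 had 485 and 227 CPM of CYP19A1 and 1410 and 288 CPM of SERPINE2. All 7 granulosa markers with enough UMIs were past 4-fold toward Du'an replicate 2, against 5.25% of all genes. With 7 or 8 gate genes it was 6 of 6, against 2.77% of all genes. UMIs were added over both libraries for this limit, so a marker abundant in Du'an replicate 2 alone could enter the count. Whether granulosa RNA in these nuclei accounts for the difference was not tested.

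Axoneme genes lay closer together than the granulosa markers, but not than genes in general. Over 103 axoneme genes, the median log2 difference, Du'an replicate 2 minus Nubian replicate 2, was -1.32 for all members and -0.59 with 7 or 8 gate genes. For the granulosa markers it was 4.61 and 4.19. Past 4-fold were 14 of 103 axoneme genes, and 4 of 103 with 7 or 8 gate genes, all toward Nubian replicate 2. Both shares were above those of all genes in that direction, 3.02% and 1.44%. None of 12 epithelial markers was past 4-fold among all members, against 5.25% of genes toward Du'an replicate 2 and 3.02% toward Nubian replicate 2. With 7 or 8 gate genes 1 of 12 was, toward Du'an replicate 2, against 2.77% of all genes. No result is read from counts of 0 and 1 of 12. The plot of the libraries against each other shows the axoneme genes near a line and the granulosa markers away from it.

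**Figure D5:**
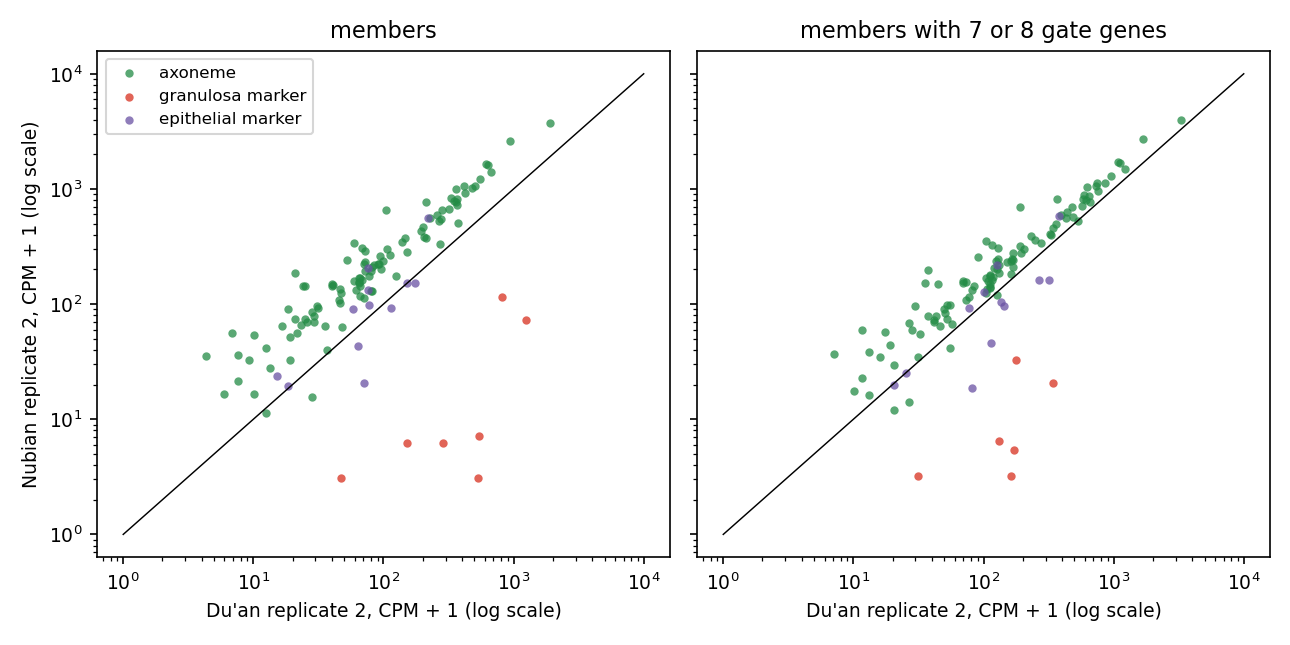
Level of each gene in the members of Du'an replicate 2 (horizontal) and Nubian replicate 2 (vertical), as CPM + 1 on log scales, for all members (left) and those with 7 or 8 gate genes (right). The line marks equal levels; the granulosa markers (red) lie below it in both panels, and the axoneme genes (green) lie along it, shifted toward Nubian replicate 2 by a median of 1.32 and 0.59 on the log2 scale.

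Other genes also differed between the libraries. SHISA9, PLD5 and BMP6 were higher in Du'an replicate 2, at 84.6 and 1.10, 248 and 3.29, and 51.4 and 0 CPM with 7 or 8 gate genes. FABP5, a fatty acid binding protein, was higher in Nubian replicate 2, at 970.3 against 69.5 CPM, as was AK1, adenylate kinase, at 56.0 against 1.51 CPM. The genes with the largest ratio toward Nubian replicate 2 were mitochondrial. ATP6 had 9363 against 3.02 CPM, COX2 had 3557 against 6.04 CPM and ATP8 had 51.6 against 0 CPM. These 3 genes were low in the whole Du'an replicate 2 library. Outside the gate it had 1.46, 1.94 and 0 CPM of them against 3638, 1946 and 11.8 CPM in Nubian replicate 2, while the mitochondrial gene CYTB was similar there, at 4714 and 4849 CPM.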

How the data were processed

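For each library the authors deposited raw UMI counts of genes by nuclei from Cell Ranger (version 5.0.0 in the paper and labels, 3.1.0 in the matrix headers), not normalized; the genome is given by an assembly number only. The authors' 2 deposited marker tables of granulosa subtypes and follicle stages (fold changes, p-values) were not used. All 28944 genes were kept. Nuclei under 800 UMIs were left out, no doublet caller was run, and no ambient correction was made. Other classes needed UMIs of 4 or more markers of exactly 1 cell type.

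Counts were summed per library and class (36 sums of 10 classes, 20 or more nuclei each) and fitted with edgeR 4.0.16 (quasi-likelihood, TMM, filterByExpr, library block; R 4.3.3), with Benjamini-Hochberg adjustment over 13438 genes, 89 of which defined a class and were left out of the counts. DESeq2 1.42.0 was an alternative. The fit was tested on simulated data. P-values of the fit measure the spread of class sums left after the library block, shared over all classes. With 2 member sums among the 36, that spread came mostly from the other classes. They say little about how the members vary between goats. Intervals and floors (3 counts) cover counting error only. RefSeq symbols (ARS1.2) matched 27165 genes.

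The members, lists and tests were chosen with earlier results of these data known. Named were all regulators, receptors, oocyte genes and dynein heavy chains, up to 4 passing and 2 non-passing genes per other list, the 15 and 10 genes outside the lists with the largest fitted changes, and up to 6 genes per direction between libraries. Others, such as CENPJ, PRICKLE1, PLAC8, SLC4A4, RSPH4A, SPACA3, CYTB and the keratins, were chosen after their values were seen. A few genes that the rule names are not reported here.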

Additional observations from a re-analysis of the deposited data

Results flagged for a closer look

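In 3 named genes the members of Du'an replicate 2 and Nubian replicate 2 differed in opposite directions by 1 or more on the log2(CPM + 1) scale, each against the nuclei outside the gate of its own library. In each gene the negative value rests on 0 or 1 UMI in the members of 1 library, and the difference between the libraries was not tested. SHISA9 differed by 4.06 in Du'an replicate 2 (211 UMIs) and by -3.41 in Nubian replicate 2 (1 UMI). TGFB3 differed by 2.41 (28 UMIs) and -2.28 (0 UMIs), and AK1 by -1.85 (1 UMI) and 2.41 (51 UMIs). With levels under 3 UMIs set to 3 UMIs, the log2 ratios were 4.19 and -2.73 for SHISA9, 2.71 and -0.31 for TGFB3, and -1.17 and 2.53 for AK1, so the opposite direction of TGFB3 lies within what so few UMIs allow.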

How the results depend on the processing

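Over 156 named genes tested, 2351 of 2615 log2 fold changes under an alternative kept their direction and their side of the threshold, 97 passed newly, 135 no longer passed and 32 turned direction. Of 107 named genes called by edgeR, 19 did not pass in DESeq2, and 12 of these were at 0 in at least 1 other class. Calls rest on 2 member sums, and where 1 was left out the lone sum was assumed to vary like the other classes. The gates of 7 genes and the exclusion of members passing a second gate other than epithelial were added after the data were seen. The cause of these changes was not tested.

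The number of members was 463 with a gate of 3 genes and ranged from 99 to 200 with 1 library left out. The difference in their share ranged from -0.315 to 0.766 points with 1 library left out, and the exact permutation test with the replicate number as a block gave p = 0.5 for the difference of 0.225 points, its smallest possible value. With 1 library left out, genes higher than the mean of the classes ranged from 1247 to 2333 and genes lower from 76 to 658. Against the epithelial class they ranged from 233 to 1500 and from 20 to 721. The lowest count in each case was without Nubian replicate 2.

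Genes lower than the mean of the classes numbered 1198 against all other nuclei, 1322 and 1419 with gates of 5 and 7 genes, 300.0 with a minimum of 5 nuclei per sum, 486 without TMM and 1519 without members of a second gate other than epithelial. Genes lower than the epithelial class numbered 456 with a minimum of 5 nuclei. In the fit without the library block, 2010 genes were higher and 680 lower than the mean of the classes, and 771 higher and 374 lower than the epithelial class. No paired analysis was possible for expression between breeds because only 1 library per breed had enough members.

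Some named genes turned direction against the other classes, with these log2 fold changes. With a gate of 3 genes, ESR2 had 1.81, LRRN1 0.16 and ATP6 -0.38. Against all other nuclei, SPP1 had -3.05, SYCP1 -1.24, SERPINE2 -2.11, FABP5 -0.99 and PLD5 -1.04. SYCP1 and PLD5 had -0.76 and -0.26 with a gate of 5 genes, and -0.96 and -0.31 with a gate of 7. ESR2 had 1.68 with a minimum of 5 nuclei, and UPK1B and SHISA9 had -0.28 and -0.26 under the study's quality filter. Without members of any second gate, UPK1B had -5.58, SYCP1 -0.77, SHISA9 -7.28, AK1 -5.19, FABP5 -0.11 and PLD5 -0.59. Without those of a second gate other than epithelial, INSR had -0.84, SYCP1 -1.73, SERPINE2 -1.51, TRABD2B -3.39 and PLD5 -0.40. With 1 library left out, SYCP1 ranged from -2.15 to 2.80, SERPINE2 from -2.81 to 1.79, SHISA9 from -1.90 to 4.16, PLD5 from -0.37 to 2.21, ATP8 from -0.21 to 2.17 and AK1 from -0.82 to 4.96.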
